A study of Mus musculus with 18 samples.

Results

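The difference between Klf15 PTKO and Klf15 fl/fl kidney cortex was measured across all treatments of the series, from all 9 PTKO libraries and all 9 fl/fl libraries, 18 of the 18 libraries in hand. It was taken as the mean of the 3 PTKO minus fl/fl differences, each within 1 treatment, on log2(RPKM + 1). RPKM is the number of reads per length of transcript and per depth of library. By label, PTKO mice lack Klf15 in the proximal tubule and fl/fl mice carry the floxed gene, both on C57Bl/6. Each genotype was given DMSO (the vehicle), aristolochic acid I for 2 weeks (AA 2wk), or the same 2 weeks and then 2 weeks for remodeling (AA 4wk), with 3 libraries per group. Aristolochic acid I is a plant toxin that injures the proximal tubule. The sources used here do not give the Cre line, its promoter, the exons removed from Klf15 or the ages of the mice. No group with Cre and an intact Klf15 is named, so an effect of Klf15 loss and an effect of the Cre allele cannot be told apart. The labels do not say that the libraries of a group come from separate mice, so p-values measure the spread between these libraries, which may be technical.

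KLF15 is a zinc finger transcription factor of the Kruppel-like family, which binds CACCC-like and GC-rich DNA. In liver and muscle it is known for switching on enzymes that break down amino acids, above all the branched-chain ones, and for a role in lipid use. The proximal tubule reabsorbs most of the filtered solutes and burns fatty acids and amino acids to do so. The title of the series points to fatty acid oxidation as the process of interest.

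The libraries held 11 to 21.9 M reads as recovered from the table, with 11323 to 13254 genes at 1 RPKM or more. Proximal tubule markers fitted the tissue label, with 26 marker genes summing to 58687 to 64185.5 RPKM in PTKO and 52378 to 65567 RPKM in fl/fl cortex in DMSO. Xist was at most 0.0158 RPKM in every library, while the Y-linked Ddx3y was 9.82 to 14.1 RPKM in PTKO and 10.6 to 15.8 RPKM in fl/fl libraries. Among the AA 2wk libraries, those numbered 3 had the highest proximal tubule and the lowest tubule injury level of their genotype. The mean over 26 proximal tubule markers on log2(RPKM + 1) was 6.61 for number 3 in PTKO and 6.92 in fl/fl, where the other AA 2wk libraries had 5.78 and 6.19 in PTKO and 6.11 and 6.62 in fl/fl. The mean over 28 injury genes was 5.86 for number 3 in PTKO and 6.13 in fl/fl, where the others had 7.06 and 7.31 in PTKO and 6.82 and 7.21 in fl/fl. PTKO AA 4wk number 2 had the lowest mean over the proximal tubule markers, 5.17. It also had 38.9 RPKM of the single adipocyte marker tested, which was at most 1.47 RPKM in every other library. In bulk cortex, fewer cells of a type and less RNA per cell cannot be told apart.

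Klf15 itself was measured first, since it is the targeted gene. In DMSO Klf15 had 28.5, 31.9 and 32.6 RPKM in PTKO against 53, 61.3 and 65.5 RPKM in fl/fl cortex. At AA 2wk Klf15 had 12.5, 17.5 and 25.6 RPKM in PTKO against 22.9, 18.6 and 41.3 RPKM in fl/fl. At AA 4wk Klf15 had 9.11, 8.81 and 9.53 RPKM in PTKO against 11.6, 14.6 and 18.8 RPKM in fl/fl. Every PTKO library lay below every fl/fl library in DMSO and at AA 4wk, and the genotypes overlapped at AA 2wk. The averaged difference was -0.70 ± 0.15 (SE, 95% interval -1.01 to -0.38), made of -0.93 (DMSO), -0.52 (AA 2wk) and -0.63 (AA 4wk). The exact permutation test, with genotype labels permuted within each treatment, gave p = 0.00175 (two-sided), while limma over all 13624 tested genes gave an adjusted p of 0.158. Klf15 (chromosome 6, 90461043 to 90491803, plus strand, GRCm38) was therefore not called, and the table's single value per gene does not separate removed from remaining exons. Over 34 other ways of processing, its difference ran from -0.78 to -0.58 and was called in 6. Among single libraries, its adjusted p was 0.0294 without fl/fl AA 2wk number 2 and 0.0446 without PTKO AA 2wk number 3.

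The window around an annotated start of Klf15 runs from 250 bases before to 50 after (RefSeq, GRCm38.p6, plus strand, chr6:90462326-90462625). It is shown because the gene is the one deleted and because the window is rich in a short palindrome. Capitals mark CACGTG, the E-box read by clock and other basic helix-loop-helix factors, which occurs 3 times in it.
Klf15: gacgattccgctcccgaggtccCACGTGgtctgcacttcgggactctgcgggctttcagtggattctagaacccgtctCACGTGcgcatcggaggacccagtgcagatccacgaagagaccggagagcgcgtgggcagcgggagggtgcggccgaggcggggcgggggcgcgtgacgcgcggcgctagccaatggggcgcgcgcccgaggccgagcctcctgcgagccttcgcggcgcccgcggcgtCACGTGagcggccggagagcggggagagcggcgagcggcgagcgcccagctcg
Searched on both strands, the E-box was in 7.15% and the Kruppel-like element CCACCC in 31.5% of the 32851 windows of the same 300 bases. The Klf15 window held no CCACCC. A match describes letters only and is not evidence of a bound factor.

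Few genes differed by genotype in a way that held over treatments. By limma with Benjamini-Hochberg adjustment, 7 of 13624 tested genes (0.0514%) were called at an adjusted p of 0.05, 6 lower (0.044%) and 1 higher (0.00734%) in PTKO, against 2 lower and 1 higher after quantile normalization. Those 6 were the purine salvage enzyme Hprt, the secreted lipid-mobilizing factor Azgp1, the tyrosine enzyme Hpd, the secreted N-acyl amino acid enzyme Pm20d1, the glutathione transferase Gstm7 and the kynurenine aminotransferase Ccbl2. The cell-surface proteoglycan Gpc3 rose. Without adjustment, 1052 genes (7.72%) had p under 0.05, 691 lower (5.07%) and 361 higher (2.65%), and under 0.001 there were 33 lower (0.242%) and 12 higher (0.0881%). The split under 0.05 was 498 lower and 511 higher with median-of-ratios scaling, and 527 lower and 638 higher after quantile normalization. With array weights it was 1634 lower and 1765 higher. It was 1050 lower and 1007 higher without PTKO AA 2wk 3, and 1080 lower and 705 higher without fl/fl AA 2wk 2. Counts of lists under these settings are to be read beside these totals. Within single treatments, the same fit called 5 genes in DMSO (0.0367%) and 1 in each toxin course (0.00734% each), and 5 of the 7 called genes were called for the average alone. In each of the 7, the difference had the same sign in all 3 treatments, which held for 3599 of all tested genes (26.4%).

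Hprt showed the widest gap. In DMSO Hprt had 20.9, 15.9 and 15.1 RPKM in PTKO against 53.5, 48.4 and 61.6 RPKM in fl/fl cortex. At AA 2wk Hprt had 7.02, 8.15 and 7.29 RPKM in PTKO against 88.1, 106 and 91.8 RPKM in fl/fl. At AA 4wk Hprt had 7.09, 4.84 and 6.82 RPKM in PTKO against 85.4, 76.9 and 88.5 RPKM in fl/fl. All 9 PTKO values lay below all 9 fl/fl values, and Hprt was the only tested gene of which this was true (0.00734%). It fell by 2.89 ± 0.08 on the log2 scale (adjusted p = 6.88e-12, limma). The difference was -1.61 in DMSO and more than that after the toxin, -3.50 (AA 2wk) and -3.56 (AA 4wk). It was also the only gene called for the interaction of genotype with treatment (0.00734%, adjusted p = 0.000621, limma F-test), where 560 genes (4.11%) had an unadjusted p under 0.05. HPRT joins hypoxanthine or guanine to phosphoribosyl pyrophosphate, which returns purine bases to the nucleotide pool. Of the 25 tested genes of purine metabolism, Hprt alone was called, and 2 were lower and 2 higher in PTKO at an unadjusted p under 0.05, Hprt among them, where 5.07% of all tested genes were lower and 2.65% higher.

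Gpc3, a glypican that holds growth factors at the cell surface through heparan sulfate chains, was the called gene that rose. In DMSO Gpc3 had 18.2, 28.5 and 20.2 RPKM in PTKO against 8.6, 10.6 and 8.58 RPKM in fl/fl cortex. At AA 2wk Gpc3 had 38.5, 56.6 and 50.4 RPKM in PTKO against 21.8, 32.2 and 27.2 RPKM in fl/fl. At AA 4wk Gpc3 had 37.6, 48.7 and 40.1 RPKM in PTKO against 23.1, 25.9 and 24.1 RPKM in fl/fl. Each treatment's PTKO libraries lay above its fl/fl libraries, while the PTKO values in DMSO lay below every fl/fl value of both toxin courses in 2 of 3 libraries. The averaged difference was 0.91 ± 0.10 (adjusted p = 0.00143), made of 1.16 (DMSO), 0.82 (AA 2wk) and 0.76 (AA 4wk).

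Hprt (chromosome X, 52988078 to 53021660, plus strand) and Gpc3 (chromosome X, 52272426 to 52613974, minus strand) lie within 1 Mb of each other. In that stretch 11 genes beside Hprt were tested. Gpc3 was called, and Gpc4, another glypican gene, gave 0.25 ± 0.06 with an unadjusted p of 0.000721 and an adjusted p of 0.266. In DMSO, Gpc4 had 92.9, 112 and 105 RPKM in PTKO against 78, 64.3 and 84.3 RPKM in fl/fl cortex. AW822252 gave -0.58 (adjusted p = 0.561), and the other 8 genes lay between -0.06 and 0.11. Within 1 Mb of Klf15 on chromosome 6, 15 other genes were tested and none was called by limma, with 2 lower and 1 higher at an unadjusted p under 0.05 (5.07% and 2.65% of all tested genes). These were Aldh1l1, a folate enzyme, at -0.42 and Uroc1, a histidine enzyme, at -0.50, with the matrix gene Fbln2 at 0.34, all named after their values were seen. Both neighbourhoods are plotted by distance from the named gene.

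**Figure D1:**
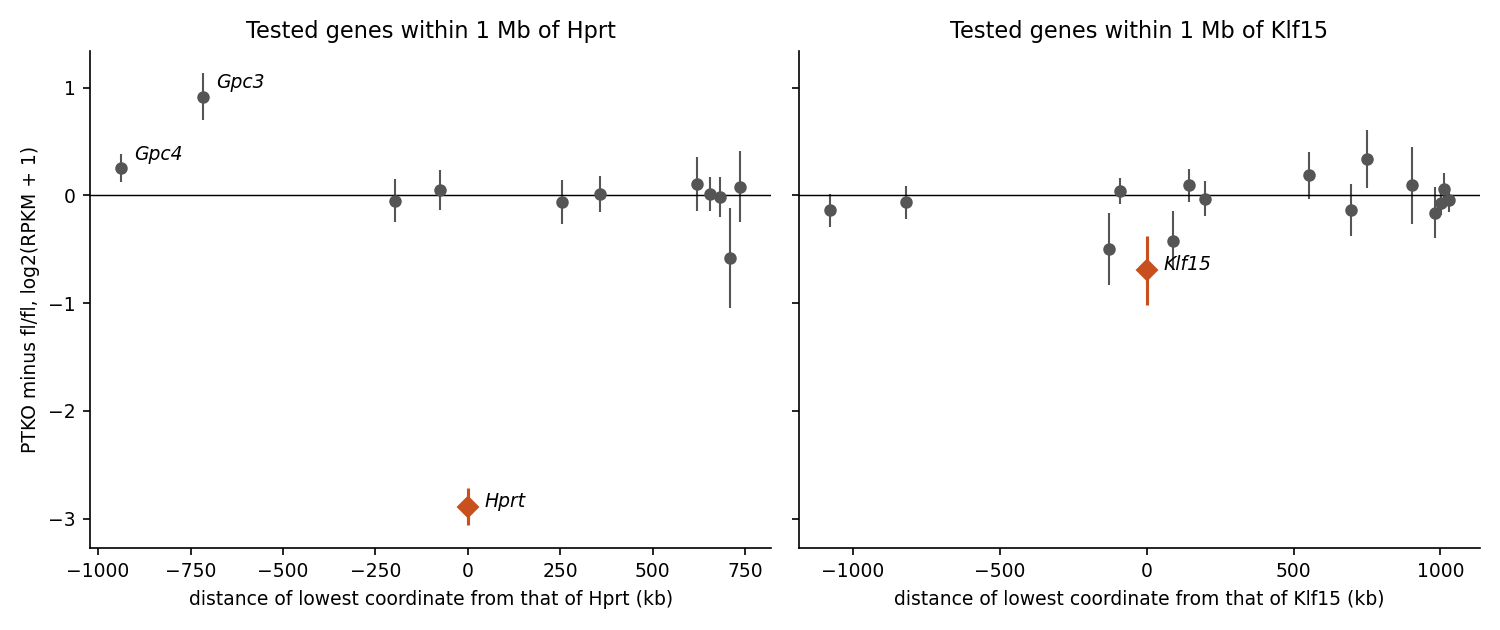
Averaged PTKO minus fl/fl difference on log2(RPKM + 1), with 95% intervals, of tested genes within 1 Mb of Hprt (left) and of Klf15 (right), against the distance of each gene's lowest coordinate from that of the named gene in kb. Gpc3 at 0.91 and Gpc4 at 0.25 are the 2 genes beside Hprt whose intervals lie above 0.

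Azgp1 encodes zinc-alpha-2-glycoprotein, a secreted protein of the MHC class I fold that promotes lipid mobilization. In DMSO Azgp1 had 46.4, 44 and 34.9 RPKM in PTKO against 125, 107 and 147 RPKM in fl/fl cortex. At AA 2wk Azgp1 had 0.58, 1.96 and 1.78 RPKM in PTKO against 5.63, 4.64 and 11.1 RPKM in fl/fl. At AA 4wk Azgp1 had 0.953, 0.231 and 0.277 RPKM in PTKO against 1.76, 1.25 and 2.87 RPKM in fl/fl. PTKO libraries were the lower ones in every treatment without overlap, and both genotypes had far lower levels after the toxin than in DMSO. It fell by 1.42 ± 0.17 on the log2 scale (adjusted p = 0.00331), from differences of -1.57 (DMSO), -1.71 (AA 2wk) and -0.99 (AA 4wk). The pseudocount of 1 makes the AA 4wk value an understatement of the ratio between levels this low.

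Hpd, which opens the homogentisate branch of tyrosine breakdown, fell by 1.33 ± 0.21 on the log2 scale (adjusted p = 0.0331). In DMSO Hpd had 18.2, 15.8 and 12.5 RPKM in PTKO against 55.9, 56.4 and 32.6 RPKM in fl/fl cortex. At AA 2wk Hpd had 0.0798, 0.102 and 0.177 RPKM in PTKO against 3.12, 1.41 and 9.37 RPKM in fl/fl. At AA 4wk Hpd was listed at 0, 0.0557 and 0 RPKM in PTKO against 0.304, 0.124 and 0.521 RPKM in fl/fl. The genotypes did not overlap in any treatment. The fitted differences were -1.55 (DMSO), -2.07 (AA 2wk) and -0.36 (AA 4wk), each with an SE of 0.37, and the interaction was not called (adjusted p = 0.942). With a pseudocount of 0.1 the averaged difference of Hpd was -2.46, and with voom on recovered reads -3.02 (adjusted p = 0.0029 and 0.278). Fah, the enzyme that ends the same branch, gave -0.63 ± 0.16 (adjusted p = 0.314), with 263, 259 and 225 RPKM in PTKO against 390.16, 362 and 385 RPKM in fl/fl cortex in DMSO. Fah was chosen after its values were seen.

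Ccbl2 (Kyat3 in RefSeq) turns kynurenine into kynurenic acid and cleaves cysteine conjugates. In DMSO Ccbl2 had 18.5, 15 and 15.6 RPKM in PTKO against 27.6, 27.3 and 23.7 RPKM in fl/fl cortex. At AA 2wk Ccbl2 had 8.7, 8.62 and 7.64 RPKM in PTKO against 15, 11.1 and 18.4 RPKM in fl/fl. At AA 4wk Ccbl2 had 8.27, 8.02 and 8.6 RPKM in PTKO against 9.2, 10.1 and 11.7 RPKM in fl/fl. The genotypes were apart in each treatment, by the narrowest margin at AA 4wk. It fell by 0.56 ± 0.08 on the log2 scale (adjusted p = 0.0173). Its start window is shown since it was the only one of the called genes' windows with either motif (RefSeq, GRCm38.p6, plus strand, chr3:142700798-142701097), with CCACCC in capitals.
Ccbl2: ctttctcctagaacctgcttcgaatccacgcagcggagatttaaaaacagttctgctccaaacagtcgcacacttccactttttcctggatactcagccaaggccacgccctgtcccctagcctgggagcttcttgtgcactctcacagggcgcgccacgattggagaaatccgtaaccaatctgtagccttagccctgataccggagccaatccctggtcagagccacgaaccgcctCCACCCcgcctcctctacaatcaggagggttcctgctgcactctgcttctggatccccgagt
RefSeq windows were matched for 6 of the 7 called genes, 7 windows in all, of which 1 held CCACCC and 0 held CACGTG.

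Pm20d1 and Gstm7 completed the called genes. Pm20d1, a secreted enzyme that joins fatty acids to amino acids and splits them again, had 25.4, 26.7 and 24.4 RPKM in PTKO against 41.6, 40.1 and 44.6 RPKM in fl/fl cortex in DMSO. At AA 2wk Pm20d1 had 10.3, 10.8 and 14.4 RPKM in PTKO against 24, 16.2 and 30.6 RPKM in fl/fl, and at AA 4wk 12.3, 11.5 and 12.7 RPKM in PTKO against 14.5, 12.9 and 17.4 RPKM in fl/fl. Its genotypes did not overlap in any treatment, and it fell by 0.63 ± 0.10 on the log2 scale (adjusted p = 0.0331). Gstm7, a mu-class glutathione transferase, had 4.3, 4.92 and 5.03 RPKM in PTKO against 9.26, 10.6 and 7.55 RPKM in fl/fl cortex in DMSO. Gstm7 had 4.17, 4.8 and 4.01 RPKM in PTKO against 8.26, 5.7 and 9.04 RPKM in fl/fl at AA 2wk, and 3.8, 3.84 and 4.54 RPKM in PTKO against 4.54, 4.51 and 5.9 RPKM in fl/fl at AA 4wk. Gstm7 overlapped between genotypes at AA 4wk alone, the only overlap among the 7 called genes, and fell by 0.58 ± 0.09 on the log2 scale (adjusted p = 0.0252). Close relatives of Gstm7 may share its reads, since how reads were assigned is not given. The exact permutation test gave 0.00025, the smallest value its 8000 arrangements allow, for each called gene other than Gstm7, for which it gave 0.0005. A gene without overlap in any treatment, the same side being lower in all 3, must reach that smallest value. The test therefore adds nothing to the lack of overlap, and its values are unadjusted, for genes picked on these same data.

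**Figure D2:**
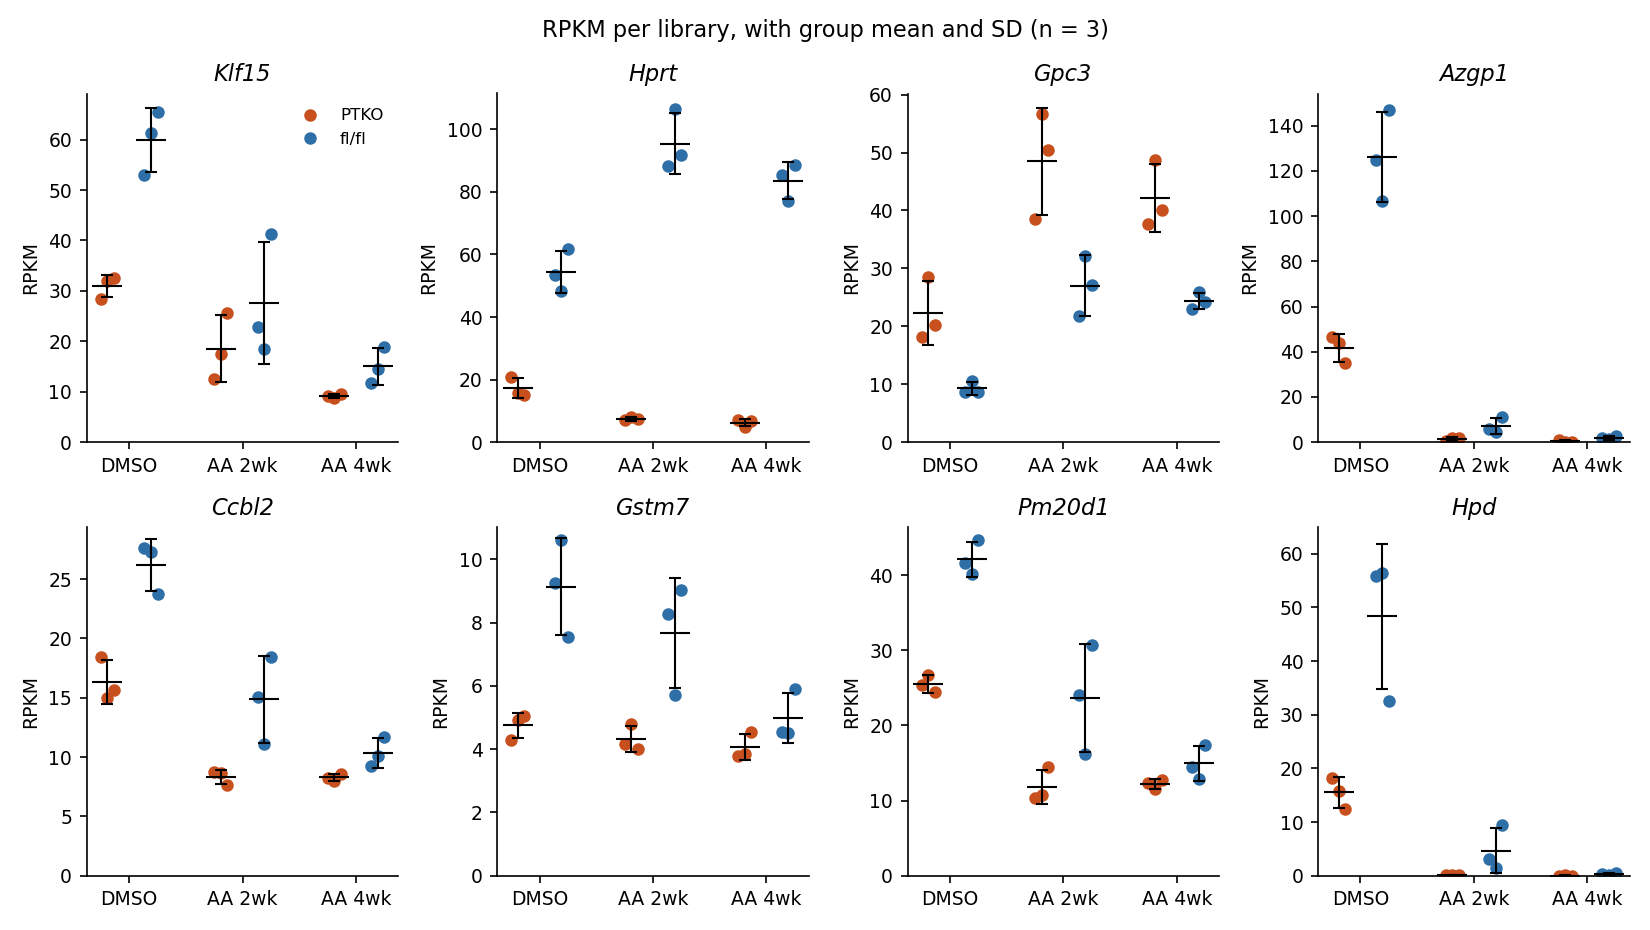
RPKM of Klf15 and the 7 called genes in each library (points), with the group mean and SD (n = 3), for DMSO, AA 2wk and AA 4wk. PTKO libraries stand left of fl/fl libraries, and those of Hprt, from 4.84 to 20.9 RPKM, all lie below the fl/fl libraries, while those of Gpc3 lie above the fl/fl libraries of the same treatment.

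The calls were of unequal firmness. Hprt was called in each of 34 other ways of processing, Gpc3 in 33, Azgp1 in 31, Ccbl2 in 21, Gstm7 in 18, Pm20d1 in 12 and Hpd in 11. With 1 library left out at a time, Hprt, Gpc3 and Azgp1 were called every time. Ccbl2 lost its call without fl/fl DMSO 1 or 2, PTKO DMSO 2 or 3, fl/fl AA 2wk 1, fl/fl AA 4wk 3 or PTKO AA 4wk 1 or 2 (adjusted p from 0.0508 to 0.07). Gstm7 kept it only without fl/fl DMSO 3, fl/fl AA 2wk 2 or 3, PTKO AA 2wk 2 or 3, fl/fl AA 4wk 2 or PTKO AA 4wk 3, and otherwise had an adjusted p of 0.0509 to 0.0913. Pm20d1 kept it without fl/fl AA 2wk 2 or 3, PTKO AA 2wk 3 or fl/fl AA 4wk 2 (otherwise 0.0682 to 0.111). Hpd kept it without fl/fl DMSO 3, fl/fl AA 2wk 2 or 3 or PTKO AA 2wk 3 (otherwise 0.0551 to 0.115). None of the 7 changed sign. The total of calls was 58 without fl/fl AA 2wk 2, 20 without PTKO AA 2wk 3, 12 without fl/fl AA 2wk 3 and 3 to 6 without any other library, PTKO AA 4wk 2 (3 calls) among them. Without both AA 2wk libraries numbered 3, 56 genes were called, the 7 above included.

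A stricter description of a lasting effect is that all PTKO libraries lie on the same side of all fl/fl libraries within each treatment. This held for 20 genes (0.147%), 15 lower (0.11%) and 5 higher (0.0367%) in PTKO, of which 6 were called. The other 14 were singled out by this pattern after their values were seen. Among the 10 lower ones, Cyp2j11, a cytochrome P450 of a family with close copies, gave -0.74 ± 0.13 (adjusted p = 0.0535) and Lrrc52, a potassium channel subunit, -0.72 ± 0.13 (0.0544). Papss2, which makes the sulfate donor PAPS, gave -0.62 ± 0.12 (0.106), with 102, 97.7 and 78.9 RPKM in PTKO against 167, 148 and 141 RPKM in fl/fl cortex in DMSO. At AA 4wk Papss2 had 27.5, 26.6 and 26.5 RPKM in PTKO against 38.5, 36.4 and 37 RPKM in fl/fl, so its libraries were tight within each genotype. Cth, which splits cystathionine to cysteine, gave -0.67 ± 0.14 (0.154), and Hrg, a histidine-rich plasma protein, -0.48 ± 0.09 (0.0711). Lin52, Gm20300, Bco2, Ptcd3 and Dscaml1 gave -0.38 to -0.15 (adjusted p from 0.158 to 0.538).

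Among the 4 higher ones were Mlph, Ttc39a and Cdh1. Cdh1, the epithelial cadherin, had 53.3, 53.6 and 54.7 RPKM in PTKO against 48.1, 50.1 and 45.7 RPKM in fl/fl cortex in DMSO, and gave 0.24 ± 0.06 over treatments (adjusted p = 0.29, limma). Mlph, which links melanosomes and vesicles to myosin, gave 0.37 ± 0.07 (0.0685), and Ttc39a 0.53 ± 0.10 (0.128). Ttc39a gave 0.32 in DMSO and 0.70 at AA 4wk, so an average does not mean equal size in each treatment. By contrast, Tmem86a and Fam102a, chosen because the DMSO comparison alone calls them, averaged 0.06 ± 0.08 and -0.15 ± 0.04 (adjusted p = 0.918 and 0.369). Tmem86a gave 0.86 (DMSO), -0.55 (AA 2wk) and -0.15 (AA 4wk), with an interaction adjusted p of 0.057.

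**Figure D3:**
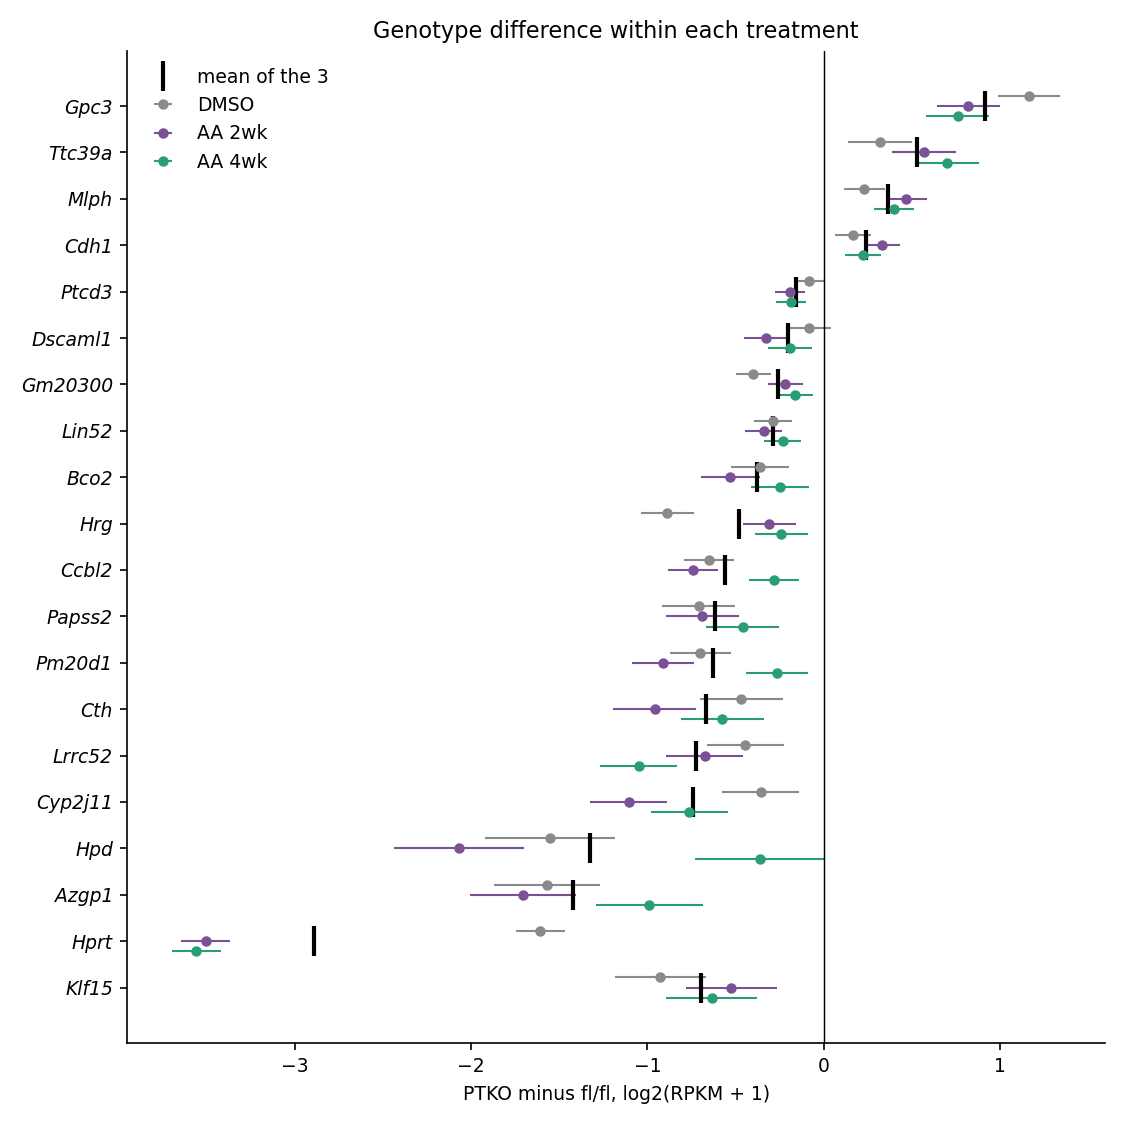
PTKO minus fl/fl difference on log2(RPKM + 1) within DMSO, AA 2wk and AA 4wk (points, bars are SE) and their mean (black tick) for Klf15 and 19 of the 20 genes without overlap in any treatment. The 3 differences of Hprt, -1.61, -3.50 and -3.56, lie farthest from 0, and those of Gpc3, Ttc39a, Mlph and Cdh1 lie above it.

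Enzymes of branched-chain amino acid breakdown had small negative differences through nearly the whole pathway. Of 24 tested genes, none was called by limma, while 18 (75%) were lower at an unadjusted p under 0.05, where 5.07% of all tested genes were, and 1 was higher. The median difference was -0.30, beside -0.01 over all tested genes, and 23 of the 24 (95.8%) were below 0, beside 54.1% of all genes. The sign was negative in all 3 treatments for 18 (75%), beside 14.6% of all genes. The list's median was -0.14 (DMSO), -0.34 (AA 2wk) and -0.42 (AA 4wk). Over the other ways of processing the unadjusted count ran from 11 to 22, with 21 without both AA 2wk libraries numbered 3, 12 without fl/fl AA 2wk 3 and 11 for the mean of DMSO and AA 2wk. Of the 24, 23 stayed below 0 in each of these but the last, where 22 did. Over all tested genes that count was 691 in the main fit and 1634 with array weights. It was 849 without both AA 2wk libraries numbered 3 and 452 without fl/fl AA 2wk 3.

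Ivd, isovaleryl-CoA dehydrogenase of the leucine branch, came nearest to a call in this pathway, at -0.61 ± 0.11 (95% interval -0.83 to -0.38, adjusted p = 0.0544, limma). In DMSO Ivd had 178, 162 and 152 RPKM in PTKO against 249.98, 230.37 and 247 RPKM in fl/fl cortex. At AA 2wk Ivd had 41.7, 46.9 and 59.1 RPKM in PTKO against 76.7, 55.8 and 104 RPKM in fl/fl, and at AA 4wk 45.1, 35.2 and 45.6 RPKM in PTKO against 59.6, 61.9 and 73.5 RPKM in fl/fl. The genotypes were apart in DMSO and at AA 4wk, and at AA 2wk 1 PTKO library lay above the lowest fl/fl library. Its differences were -0.56, -0.64 and -0.62 in the 3 treatments. It was called without fl/fl AA 2wk 2 or 3 or PTKO AA 2wk 3 (adjusted p from 0.00227 to 0.0365). Its start window (RefSeq, GRCm38.p6, plus strand, chr2:118861744-118862043) is shown as that of the pathway's nearest member to a call, with its single CCACCC in capitals.
Ivd: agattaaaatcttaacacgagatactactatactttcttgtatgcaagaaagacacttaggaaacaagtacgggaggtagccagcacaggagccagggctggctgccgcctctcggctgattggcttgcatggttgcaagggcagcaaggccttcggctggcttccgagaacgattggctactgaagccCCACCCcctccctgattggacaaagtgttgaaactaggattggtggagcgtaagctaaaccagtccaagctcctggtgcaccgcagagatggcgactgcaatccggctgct
Both other start windows printed here came from the deleted gene and a called gene, and 31.5% of all windows share this motif.

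Along the pathway, the first shared steps had differences of both signs. Bcat2, the mitochondrial transaminase, gave -0.29 ± 0.10 (adjusted p = 0.539), while Bcat1, its cytosolic relative, was the 1 member above 0, at 0.60 ± 0.23 (0.561). Bcat1 had 12.8, 8.39 and 13.9 RPKM in PTKO against 3.24, 5.81 and 3.16 RPKM in fl/fl cortex in DMSO, but its difference was -0.32 at AA 2wk and 0.80 at AA 4wk. Of the branched-chain ketoacid dehydrogenase complex, Bckdhb, the E1 beta subunit, gave -0.53 ± 0.16 (0.408), with -0.51, -0.52 and -0.56 in the 3 treatments, and Dbt, the E2 core, -0.33 ± 0.07 (0.164). Dbt had 41.1, 41.4 and 41.9 RPKM in PTKO against 46.1, 45.7 and 50.2 RPKM in fl/fl cortex in DMSO, every PTKO value being below every fl/fl value. Bckdk, the kinase that turns the complex off, gave -0.05 ± 0.06 (0.907). Further down, Mccc1 of leucine breakdown gave -0.38 ± 0.09 (0.281) and Hibch of valine breakdown -0.36 ± 0.08 (0.214). Bckdhb, Bckdk, Bcat1, Mccc1 and Hibch were chosen after their values were seen.

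**Figure D4:**
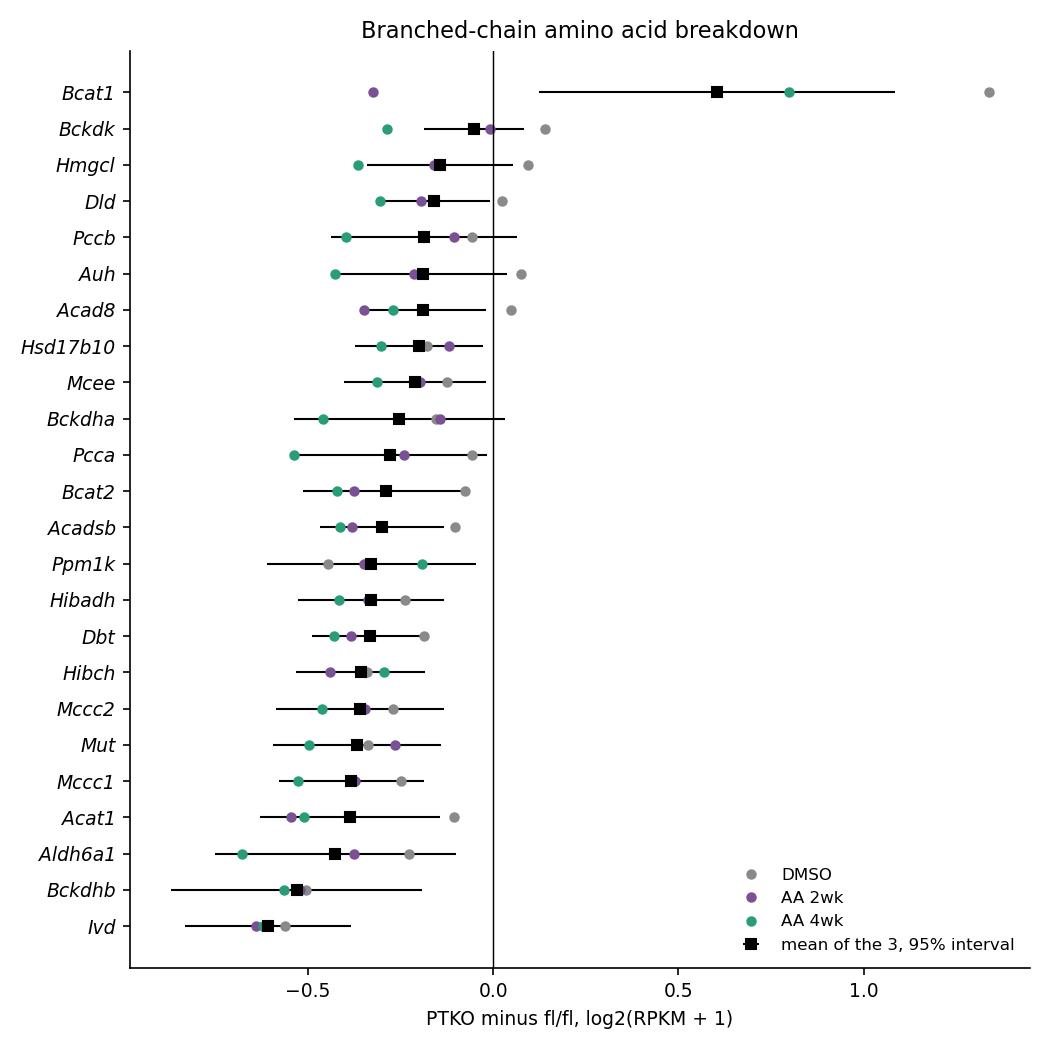
PTKO minus fl/fl difference on log2(RPKM + 1) of the 24 tested genes of branched-chain amino acid breakdown, within each treatment (coloured points) and averaged (black squares with 95% intervals). All averages but that of Bcat1 (0.60) lie below 0, from -0.61 for Ivd to -0.05 for Bckdk.

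Genes that break down other amino acids leaned the same way on average, most at AA 4wk. The list's median was -0.12 (DMSO), -0.08 (AA 2wk) and -0.45 (AA 4wk). The sign was negative in all 3 treatments for 9 (47.4%), beside 14.6% of all genes. Of 19 tested, 1 was called (Hpd), 9 (47.4%) were lower and 0 higher at an unadjusted p under 0.05, beside 5.07% and 2.65% of all genes, and the median was -0.31. Gpt, alanine aminotransferase, gave -0.50 ± 0.09 (adjusted p = 0.0711), with 5.5, 5.25 and 6.95 RPKM in PTKO against 12.1, 11.5 and 12.7 RPKM in fl/fl cortex in DMSO. Its difference was -0.93 in DMSO and 0.01 at AA 4wk, so the average does not hold in every treatment. The unadjusted count was 14 without PTKO AA 2wk 3, 4 or 5 without fl/fl DMSO 1, PTKO DMSO 3, fl/fl AA 2wk 3, PTKO AA 2wk 1 or 2, fl/fl AA 4wk 3 or PTKO AA 4wk 2, and 3 for the mean of DMSO and AA 2wk. With median-of-ratios scaling, and likewise with voom, 4 were lower and 1 higher, and with array weights 15 lower and 2 higher. The median was -0.18 without fl/fl AA 2wk 3. Among all tested genes, 691 were lower and 361 higher in the main fit. Array weights gave 1634 lower and 1765 higher of them, and leaving out PTKO AA 2wk 3 gave 1050 and 1007.

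Proximal tubule markers were measured beside these pathways. Of 26 markers, none was called, 2 (7.69%) were lower at an unadjusted p under 0.05 and 24 were below 0, with a median of -0.28. Of all tested genes, 5.07% were lower at that p and 54.1% were below 0. The unadjusted count was 14 without PTKO AA 2wk 3, 11 without fl/fl AA 2wk 2, 8 without PTKO AA 4wk 1 and 1 to 4 without any other library. It was 11 without both AA 2wk libraries numbered 3, 0 without both DMSO libraries numbered 3, 10 for the mean of the AA courses, 5 for that of DMSO and AA 4wk, and 16 with array weights. The same count over all tested genes was 691 in the main fit and 1634 with array weights. It was 1050 without PTKO AA 2wk 3 and 1080 without fl/fl AA 2wk 2. The median of the list was -0.04 (DMSO), -0.16 (AA 2wk) and -0.40 (AA 4wk). Summed, the markers averaged 61932 RPKM in PTKO and 58692 RPKM in fl/fl cortex in DMSO, 4975 RPKM in PTKO and 7113 RPKM in fl/fl at AA 2wk, and 3430 RPKM in PTKO and 4732 RPKM in fl/fl at AA 4wk. The part of these markers in the differences of the enzyme lists was not tested. In DMSO the marker sums of the genotypes overlapped, which does not show an equal tubule content. The markers had a median of -0.04 there and ran from -0.82 (Cyp2e1) to 0.58 (Acsm3). Branched-chain genes had a median of -0.14 there and ran from -0.56 (Ivd) to 1.34 (Bcat1). Averaged over treatments, the 2 medians were -0.28 and -0.30.

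Fatty acid oxidation genes, the process in the study's title, were not called for the averaged effect by limma. Of 24 tested, 7 (29.2%) were lower and 0 higher at an unadjusted p under 0.05, the median was -0.18, and 22 (91.7%) were below 0. Of all tested genes, 5.07% were lower and 2.65% higher at that p, and 54.1% were below 0. By treatment the list's median was -0.08 (DMSO), -0.17 (AA 2wk) and -0.28 (AA 4wk). Members negative in all 3 treatments numbered 16 (66.7%), beside 14.6% of all genes. The 95% intervals lay below 0 for 7 and covered 0 for 17, and their outer bounds were -0.79 and 0.29. Cpt1a, the gate for long-chain fatty acids into mitochondria, had 145, 144 and 152 RPKM in PTKO against 168, 158 and 175 RPKM in fl/fl cortex in DMSO. At AA 2wk Cpt1a had 84.1, 80.9 and 154 RPKM in PTKO against 124, 76.8 and 154 RPKM in fl/fl, and at AA 4wk 107, 94.3 and 106 RPKM in PTKO against 119, 115 and 105 RPKM in fl/fl. Its PTKO libraries were the lower ones in DMSO alone, and both AA courses overlapped. The averaged difference of Cpt1a was -0.16 ± 0.13 (95% interval -0.44 to 0.12, adjusted p = 0.833), and that of Acadm, the medium-chain dehydrogenase, -0.20 ± 0.11 (-0.43 to 0.03, 0.708). Echs1 and Etfa, a hydratase and an electron carrier subunit of the same spiral, gave -0.31 ± 0.10 and -0.30 ± 0.09 (adjusted p = 0.445 and 0.433). The unadjusted count was 19 without PTKO AA 2wk 3, 17 without fl/fl AA 2wk 2 and 5 to 8 without any other library, 16 without both AA 2wk libraries numbered 3, and 1 for the mean of DMSO and AA 2wk. Median-of-ratios scaling gave 4 lower and 1 higher, voom 3 lower, and array weights 22 lower and 1 higher. The median was -0.12 without fl/fl AA 2wk 3. Counts over all tested genes were 691 lower and 361 higher in the main fit, and 1634 and 1765 with array weights. They were 1050 and 1007 without PTKO AA 2wk 3, and 1080 and 705 without fl/fl AA 2wk 2.

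The fatty acid sensor Ppara gave -0.17 ± 0.17 (95% interval -0.53 to 0.19, adjusted p = 0.867). Of 33 tested genes of the PPAR-alpha and peroxisome list, none was called, 8 (24.2%) were lower and 1 higher at an unadjusted p under 0.05, where 5.07% and 2.65% of all genes were, and the median was -0.18. By treatment that median was -0.05 (DMSO), -0.20 (AA 2wk) and -0.22 (AA 4wk). Members negative in all 3 treatments numbered 12 (36.4%), beside 14.6% of all genes. The peroxisomal thiolase Acaa1b gave -0.58 ± 0.20 and the fatty acid hydroxylase Cyp4a10 -0.67 ± 0.23 (adjusted p = 0.503 and 0.516), both from families with close copies. The unadjusted count of this list was 15 without PTKO AA 2wk 3, 14 without fl/fl AA 2wk 2, 11 without PTKO AA 4wk 1 and 3 to 7 without any other library. There were 4 lower and 2 higher with median-of-ratios scaling, 5 lower and 2 higher after quantile normalization, 3 lower and 2 higher with voom, and 23 lower and 1 higher with array weights. Array weights also moved the whole set of tested genes, from 691 lower and 361 higher to 1634 lower and 1765 higher. Without PTKO AA 2wk 3 the whole set had 1050 lower and 1007 higher.

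Averaged over treatments, injury and macrophage genes had mostly positive differences, and limma called none of them. Of 28 tubule injury genes, 4 were higher and 0 lower at an unadjusted p under 0.05, 24 were above 0, and the median was 0.20. Of the 13624 tested genes, 2.65% were higher at that p and 6257 were above 0. By treatment the median was 0.28 (DMSO), -0.02 (AA 2wk) and 0.30 (AA 4wk), and 12 of the 28 had a positive sign in all 3, beside 11.9% of all genes. The unadjusted count was 18 without PTKO AA 2wk 3, 9 without fl/fl AA 2wk 2, 4 to 7 without any other library, 10 without both AA 2wk libraries numbered 3 and 17 with array weights. With 1 library left out the median ran from 0.10 (fl/fl AA 2wk 3) to 0.34 (PTKO AA 2wk 3). Higher genes among all tested ones numbered 361 in the main fit, 1007 without PTKO AA 2wk 3 and 1765 with array weights. They numbered 705 without fl/fl AA 2wk 2 and 726 without both AA 2wk libraries numbered 3. Lcn2, a lipocalin shed by injured tubules, had 1.71, 1.81 and 9.34 RPKM in PTKO against 1.36, 2.42 and 0.74 RPKM in fl/fl cortex in DMSO. At AA 2wk Lcn2 had 629.51, 1119.8 and 626 RPKM in PTKO against 353, 544 and 99.7 RPKM in fl/fl, and at AA 4wk 457, 676 and 542 RPKM in PTKO against 419.9, 202 and 285 RPKM in fl/fl. The genotypes were apart in both AA courses and overlapped in DMSO. Its difference was 1.09 ± 0.33 (adjusted p = 0.423, exact permutation p = 0.003). Krt19, a simple keratin, gave 0.88 ± 0.22 (adjusted p = 0.33), and Clu, a secreted chaperone, 0.70 ± 0.21 (adjusted p = 0.417).

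Havcr1, kidney injury molecule 1, did not follow them. In DMSO Havcr1 had 0.978, 0.62 and 24.9 RPKM in PTKO against 0.713, 0.821 and 0.391 RPKM in fl/fl cortex. At AA 2wk Havcr1 had 383, 579 and 58.7 RPKM in PTKO against 433, 573 and 579 RPKM in fl/fl, and at AA 4wk 327, 270.33 and 327 RPKM in PTKO against 331, 266 and 391 RPKM in fl/fl. The genotypes overlapped in each treatment, and 2 PTKO libraries, DMSO 3 and AA 2wk 3, lay far from the rest of their groups. The average of 0.06 ± 0.50 (adjusted p = 0.987) carried a 95% interval from -0.999 to 1.12 and became -0.37 without PTKO DMSO 3.

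Of 14 macrophage markers, none was called, 2 were higher at an unadjusted p under 0.05, where 2.65% of all genes were, all were above 0, and 11 had a positive sign in all 3 treatments, beside 11.9% of all genes. Their median was 0.37, from 0.21 in DMSO to 0.54 at AA 4wk. The unadjusted count was 9 without fl/fl AA 2wk 2, 8 without PTKO AA 2wk 3, 1 to 4 without any other library, 5 without both AA 2wk libraries numbered 3 and 11 with array weights. Without fl/fl AA 2wk 3 the median was 0.18 and 1 marker was below 0. For all tested genes the higher count was 361 in the main fit and 1765 with array weights. It was 705 without fl/fl AA 2wk 2 and 1007 without PTKO AA 2wk 3. Cd14, the endotoxin co-receptor, gave 0.63 ± 0.19, and Itgam, the CD11b integrin, 0.53 ± 0.21 (adjusted p = 0.408 and 0.599). The marker sums were 61.2 to 97.9 RPKM in PTKO and 46.1 to 80.1 RPKM in fl/fl cortex in DMSO. They were 686 to 2050 RPKM in PTKO and 315 to 2246 RPKM in fl/fl at AA 2wk, and 2539 to 3717 RPKM in PTKO and 1645 to 2481 RPKM in fl/fl at AA 4wk. The sums overlapped in DMSO and at AA 2wk and were apart at AA 4wk. Complement C3, a liver and tubule product, gave 0.91 ± 0.30 (adjusted p = 0.497). The J chain of plasma cells, Igj, went the opposite way at -0.98 ± 0.25 (0.326), with 5.6, 11.1 and 6.05 RPKM in PTKO against 16.5, 13.1 and 18.5 RPKM in fl/fl cortex in DMSO. Only 4 B and plasma cell genes were tested, of which limma called none, 3 were below 0 and 1 was above. At an unadjusted p under 0.05, 2 (50%) were lower, beside 5.07% of all genes. Their median was -0.07 (DMSO), -0.17 (AA 2wk) and -0.88 (AA 4wk).

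**Figure D5:**
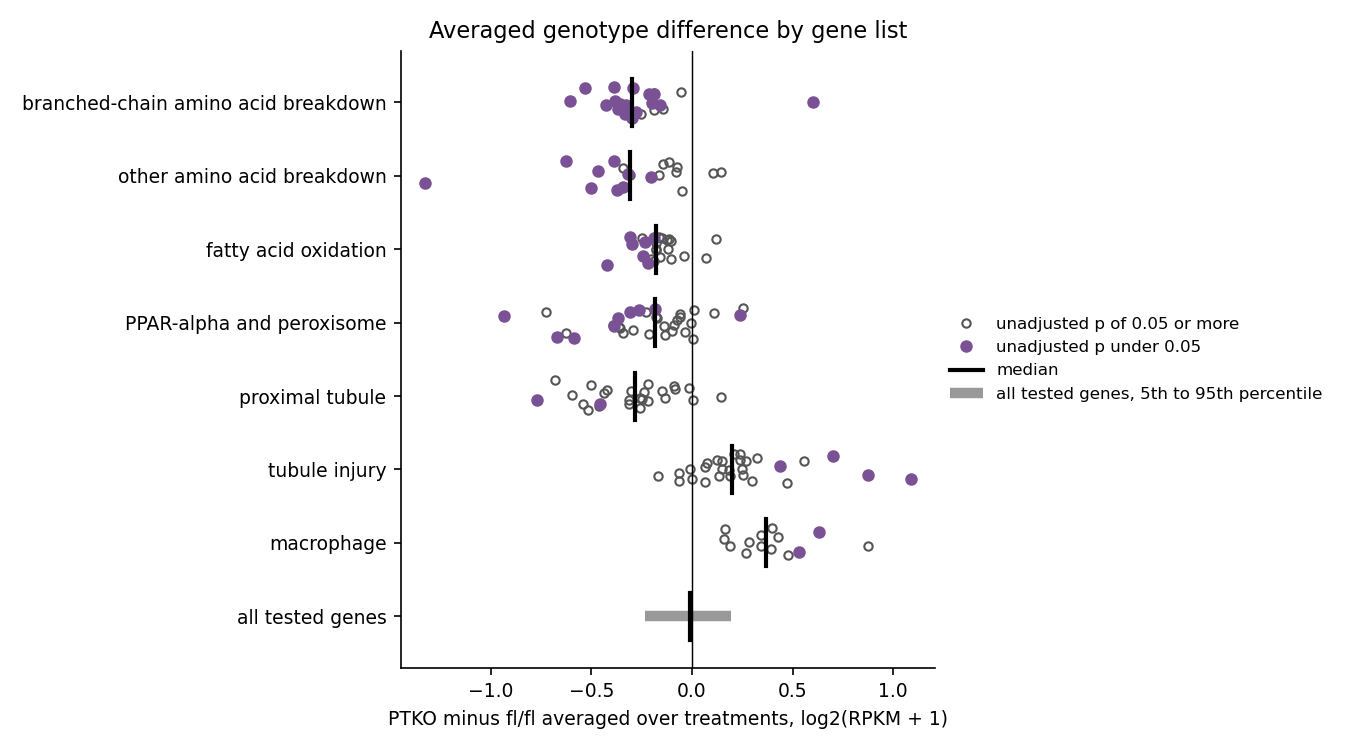
Averaged PTKO minus fl/fl difference on log2(RPKM + 1) of each tested member of 7 gene lists, with medians (black ticks) and a grey bar for the 5th to 95th percentile of all tested genes. Filled points have an unadjusted p under 0.05, and medians run from -0.31 for other amino acid breakdown to 0.37 for macrophage markers.

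Among other segments, Pvalb of the distal convoluted tubule gave -1.02 ± 0.28 (adjusted p = 0.373), but 0.15 in DMSO and -1.66 and -1.54 at AA 2wk and AA 4wk. Slc4a1 and Slc26a4, the anion exchangers of intercalated cells, gave -0.49 ± 0.16 and -0.38 ± 0.14 (0.444 and 0.561). Of 7 intercalated markers, 6 were negative in all 3 treatments, beside 14.6% of all genes. So were 4 of 6 distal convoluted tubule and 1 of 8 (12.5%) thick ascending limb markers, and all members of these 3 lists averaged below 0. The thick ascending limb median was 0.27 (DMSO), -0.47 (AA 2wk) and -0.52 (AA 4wk). All 9 podocyte markers averaged above 0, and 3 were higher at an unadjusted p under 0.05, beside 2.65% of all genes. The podocyte median was -0.001 (DMSO), 0.54 (AA 2wk) and 0.12 (AA 4wk). Of 9 collecting duct principal cell markers, 6 averaged above 0 and 3 below. Nqo1, a quinone reductase and NRF2 target, gave -0.48 ± 0.14 (0.406), whereas Hmox1, heme oxygenase and also an NRF2 target, gave 0.24 ± 0.08 (0.433). Of 14 tested NRF2 targets, limma called none, and 11 were below 0, beside 54.1% of all genes. At an unadjusted p under 0.05, 4 (28.6%) were lower and 1 higher, beside 5.07% and 2.65% of all genes. Their median was 0.10 (DMSO), -0.33 (AA 2wk) and -0.09 (AA 4wk). The glucocorticoid-induced Fkbp5 gave 0.32 ± 0.14 (0.634), with -0.24 in DMSO and 0.67 at AA 4wk. The TCA cycle and gluconeogenesis lists leaned negative on average too, but their medians in DMSO were above 0. Of 17 tested TCA cycle genes, 17 were below 0 and 4 (23.5%) lower at an unadjusted p under 0.05, with a median of -0.14. That median was 0.03 (DMSO), -0.11 (AA 2wk) and -0.31 (AA 4wk), and 5 (29.4%) were negative in all 3 treatments. Of 13 tested gluconeogenesis genes, 10 were below 0 and 1 (7.69%) lower at that p, with a median of -0.22. Here the median was 0.04 (DMSO), -0.03 (AA 2wk) and -0.39 (AA 4wk), and 6 (46.2%) were negative in all 3 treatments. Limma called none of either list, and 54.1% of all genes were below 0. Glycolysis, circadian clock and p53 target genes had medians of 0.01, -0.10 and -0.10 (16, 22 and 24 tested), and limma called none. At an unadjusted p under 0.05, 1 glycolysis gene was higher, and 2 clock genes (9.09%) and 1 p53 target (4.17%) were lower. Of all tested genes, 5.07% were lower and 2.65% higher at that p.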

How the data were processed

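The table deposited by the authors holds RPKM values, so named in its header (per the file headers), of 24062 genes. Tools listed in the submitters' processing notes are bcl2fastq 2.19 and kallisto, with build mm10. The sources used here do not say how a read was counted for a gene. Libraries were made from total RNA with a stranded kit, per the labels' protocols. Whole reads were recovered from the RPKM steps for all 17579 genes above 0 in at least 6 libraries (100%, tolerance 0.02 reads). No pair of libraries held identical values.

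Tests covered genes that reached 1 RPKM in 3 or more libraries, on log2(RPKM + 1). A single fit of 6 group means in limma 3.58.1 (with statmod 1.5.0, run in R 4.3.3), with an intensity trend and robust moderation, gave the mean of the 3 genotype differences and an F-test of their inequality. Tests were two-sided, adjusted by Benjamini-Hochberg over 13624 genes, and checked on simulated data. Named genes got an exact permutation test within treatments. Fold changes are on the log2(RPKM + 1) scale and understate those of low genes. Depth sets counting error only.

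Named genes are Klf15, every called gene, up to 2 members of smallest p in each list not given by counts alone, 6 fixed genes (Cpt1a, Acadm, Ppara, Bcat2, Havcr1 and Lcn2), genes separating 9 against 9, and any said to be chosen later. The members, lists and tests were chosen with earlier results of these data known. Gene positions come from the RefSeq annotation of GRCm38, and start windows from RefSeq (GRCm38.p6). The Klf15 window lies within the span given for the gene, so it surrounds a start other than the first base of that span. Results of some genes are not reported here. Alternatives changed the pseudocount, filter, scaling, model terms, block, weights, count model (voom on recovered reads), treatments averaged and libraries left out.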

Additional observations from a re-analysis of the deposited data

Results flagged for a closer look

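Hprt differed between genotypes by an amount that itself differed between treatments: -1.61 (DMSO), -3.50 (AA 2wk) and -3.56 (AA 4wk) on the log2 scale (adjusted p of the interaction = 0.000621, limma F-test over 13624 genes). All 9 PTKO libraries lay below all 9 fl/fl libraries. Hprt averaged 17.3 RPKM in PTKO and 54.5 RPKM in fl/fl cortex in DMSO, and 7.49 RPKM in PTKO and 95.4 RPKM in fl/fl cortex at AA 2wk.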

How the results depend on the processing

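The count of 7 called genes (1 higher, 6 lower) moved with several settings. Array weights gave 781 (296 higher, 485 lower) and 216 interaction calls. Without both AA 2wk libraries numbered 3 there were 56 (7 higher, 49 lower), 2 interaction calls and 92 genes without overlap, the last partly because 2 against 2 libraries separate more easily. Leaving out both DMSO libraries numbered 3 gave 4 (3 lower), voom 2 (1 lower, 2 interaction calls), quantile normalization 3 (1 higher, 2 lower), and no trend and no robust moderation 11 (2 higher). Without the filter 2 were higher, and median-of-ratios scaling gave 2 interaction calls. The mean of AA 2wk and AA 4wk called 1 (0 higher, 1 lower), that of DMSO and AA 4wk called 2 (1 lower). The branched-chain count, an alternative chosen after seeing the data, was 11 for the mean of DMSO and AA 2wk. Apart from the loss of libraries or treatments, the cause was not tested. With 1 library left out, calls ran from 3 to 58, higher ones from 1 to 15, lower ones from 2 to 43, interaction calls from 1 to 6, and branched-chain genes from 12 to 22.

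A replicate block of the 9 same-numbered pairs gave 65 calls (9 higher, 56 lower), and a block over the 3 numbers 11 (10 lower). Both blocks called Klf15 (adjusted p = 0.00756 and 0.0312, limma) and Ivd (0.00317 and 0.0216) and ended the call of Hpd (0.0753 and 0.0502). The labels name no pairing, and the deviations of same-numbered libraries correlated at 0.0708 to 0.201 (DMSO), 0.431 to 0.663 (AA 2wk) and 0.0568 to 0.222 (AA 4wk), so 7 of 9 were above 0.1, where every one was required to treat the numbers as pairs. In 7 of 9 cases a library correlated best with its own number, the exceptions being number 1 in DMSO and at AA 2wk, which is a hint from the data and not the design.

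Of 65 named genes, 62 kept their sign in all 34 settings. Havcr1 turned to -0.40 without both DMSO libraries numbered 3, -0.62 for the mean of AA 2wk and AA 4wk, -0.37 without PTKO DMSO 3, and -0.05 and -0.15 without PTKO AA 2wk 1 or 2, and was 0.39 without PTKO AA 2wk 3. Tmem86a turned to -0.35 for the mean of AA 2wk and AA 4wk, and Bckdk to 0.066 for that of DMSO and AA 2wk. The median SE of an averaged difference was 0.08 on the log2 scale. A call took a difference many times its SE, since Ivd at -0.61 ± 0.11 was not called (adjusted p = 0.0544, limma). A gene that was not called may therefore still differ by well over 1 SE.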
